A study of Gallus gallus with 6 samples.

Results

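The transcriptome of injured lens tissue kept in vehicle was described from the 3 DMSO libraries of a series of 6. Membership followed the treatment label alone, so no measured value chose the libraries. Each library was made from RNA of chicken (Gallus gallus) ocular lens explants that had undergone an operation modelled on cataract surgery and then received DMSO, the solvent used as vehicle, daily between days 1 and 3 after injury. All cultures were held at 37 degrees Celsius with 5% CO2 in complete medium with 10% fetal bovine serum. The other libraries of the study received GSK-J4, an inhibitor of histone H3K27 demethylases, and were not used here. Strain, age, sex, the number of birds behind a library and whether the replicates were separate animals or cultures are facts not given by the sources used here. No uninjured lens and no other time is among these libraries, so every value below is a level after injury in serum and not a change caused by it.

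The lens is made of an anterior epithelium and of elongated fibre cells, enclosed in a basement membrane called the capsule. Fibre cells fill themselves with crystallins, the soluble proteins that give the lens its refractive power, and in birds a large part of this is delta-crystallin, recruited from the enzyme argininosuccinate lyase. Cataract surgery removes the fibre mass through the opened capsule, and cells left behind can divide, differentiate into fibre cells, or turn into contractile, matrix-producing cells that cloud the posterior capsule. In RNA from whole explants, more cells of a type and more RNA per cell cannot be told apart.

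Library totals were 16950835, 17308741 and 15456888 counts assigned to genes in replicates 1, 2 and 3. Of 24356 genes in the table, 17208 had a count in at least 1 library and 7148 had none. A gene was called detected when it reached 1 FPKM (fragments per kilobase of gene length, scaled to library depth) in each of the 3 libraries. By this rule 10823 genes were detected, which is 44.4% of the table, and their median level was 11.1 FPKM. At least 100 FPKM in each library was reached by 550 genes, and at least 1000 FPKM by 49.

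The counts were concentrated in few genes. The 10 genes with the most counts took 25.1% ± 1.68 of a library (SD, n = 3), and the top 100 took 41.1% ± 1.37. Replicates 1, 2 and 3 needed 235, 218 and 276 genes to reach 50% of their counts, and 4300, 4286 and 4463 genes to reach 90%. By both counts replicate 3 was the least concentrated, although its single highest gene took 6.53% of the counts, against 5.52% and 5.64% for the highest gene in replicates 1 and 2. Protein-coding genes held 98.8% ± 0.0381 of the counts, genes of the pseudogene biotype 0.647% ± 0.0332 and long noncoding RNA (lncRNA) genes 0.523% ± 0.0123. Of the 16779 protein-coding genes 10296 were detected, against 243 of 5504 lncRNA genes. The 37 genes of the mitochondrial genome held 1.88%, 1.5% and 1.93% of the counts, with replicate 2 the lowest.

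Ranked by mean FPKM, which sets genes side by side per unit of length, the first 6 genes were all crystallins. The 30 highest genes took 30.8% ± 1.5 of the counts (SD, n = 3). They comprised 8 crystallins, 4 mitochondrial genes and 18 others. The first gene outside the crystallins was LDHA, the lactate dehydrogenase subunit that favours lactate production, at 7555, 9022 and 6440 FPKM in replicates 1, 2 and 3. ENO1, the glycolytic enolase, followed at 7417, 7027 and 4533 FPKM. For both genes replicate 3 was the lowest library.

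Further down came OAZ, the antizyme that restrains ornithine decarboxylase, with 4674 ± 513 FPKM, the translation factor EEF1A1 with 3456 ± 222 FPKM, and the RNA-binding protein YBX1 with 3286 ± 293 FPKM. MIF, a cytokine that lens cells are known to make, had 3910, 3285 and 2608 FPKM, a spread with replicate 3 again lowest. VIM, the intermediate filament vimentin shared by lens cells and mesenchyme, stood at 2821, 3238 and 3167 FPKM. ISYNA1, the enzyme that starts inositol synthesis, stood at 1918, 2159 and 1419 FPKM. SPARC, a collagen-binding matricellular protein, closed the 30 at 1652, 1582 and 1382 FPKM.

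Neighbours in this order were rarely apart. Of the 29 pairs of adjacent ranks, 24 had overlapping library values and 5 did not. The separated pairs were CRYBA2 above CRYBB2, ASL1 above CRYAB, CRYAB above LDHA, OAZ above COX1, and FAU, which encodes a ribosomal protein joined to a ubiquitin-like one, above TMSB15B, an actin-binding thymosin beta. This rule sets values of different libraries side by side, and by it the place of the other genes within their stretch is not resolved. Some pairs that overlap by this rule kept their order within each of the 3 libraries, such as LDHA above ENO1 and ATP6 above COII.

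**Figure D1:**
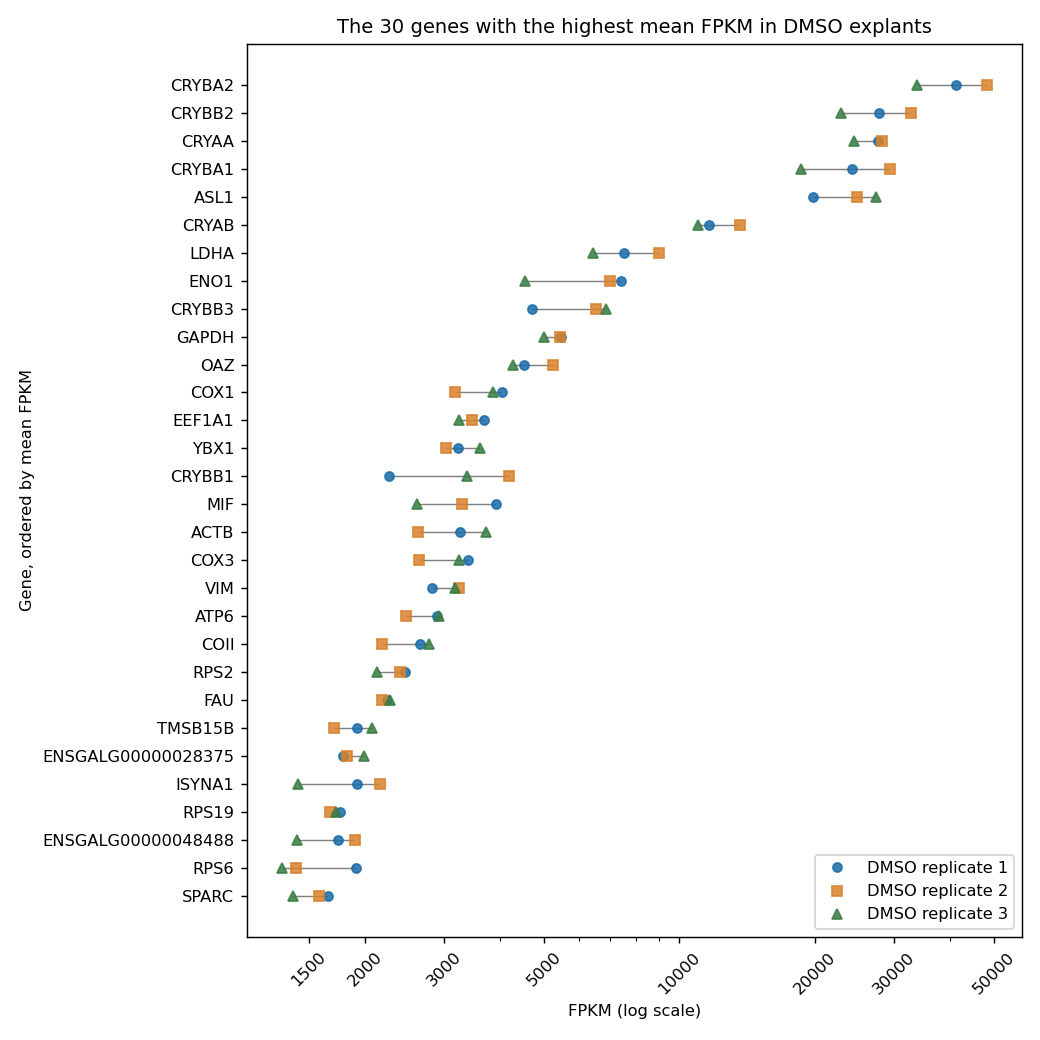
FPKM (horizontal axis, log scale) of the 30 genes with the highest mean, ordered down the page, with 1 symbol per DMSO replicate and a line spanning the 3 values. The crystallins CRYBA2 to CRYAB sit apart at the top, between 10989 and 48399 FPKM, while the lines of most neighbours below them overlap.

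All 15 crystallin genes matched were detected, beside 44.4% of all genes in the table. Together they held 20.9%, 23.3% and 20.8% of the counts in replicates 1, 2 and 3, or 21.7% ± 1.39 (SD, n = 3). CRYBA2, a beta-crystallin at chromosome 7, 22350254 to 22352592, was the highest gene of the transcriptome per length, with 41204, 48399 and 33870 FPKM. CRYBB2, a basic beta-crystallin at chromosome 15, 7284658 to 7286811, had 27810, 32830 and 22891 FPKM. These 2 genes kept nearly the same proportion, with CRYBA2 at 1.48, 1.47 and 1.48 times CRYBB2 on the FPKM scale, although both were 1.48-fold apart between replicate 2 and replicate 3 on the CPM scale described below.

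The alpha-crystallins are small heat-shock proteins that hold other lens proteins in solution. CRYAA, at chromosome 1, 111071770 to 111078627, had 27727, 28179 and 24479 FPKM. CRYAB, at chromosome 24, 6239995 to 6246232, had 11619, 13673 and 10989 FPKM, so CRYAA stood at 2.39, 2.06 and 2.23 times CRYAB. Both were lowest in replicate 3.

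Delta-crystallin is encoded by 2 neighbouring genes on chromosome 19. ASL1, delta-1 crystallin at 5095412 to 5104199, had 19831, 24833 and 27369 FPKM and took 5.63% ± 0.903 of the counts, a share that overlapped between libraries with the 5.25% ± 0.330 of CRYAA. ASL2, the neighbour at 5082064 to 5091544 that codes for the active lyase, had 1317, 1356 and 1101 FPKM. ASL1 thus exceeded ASL2 by 15.1, 18.3 and 24.9 times per length, and the ratio was highest in replicate 3. The 2 genes are close copies, so reads shared between them may have been divided in counting in a way that was not checked.

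ASL1 differed from most of the other abundant crystallins in its order of libraries. It was highest in replicate 3, where CRYBA2, CRYBB2, CRYAA, CRYBA1 and CRYAB were lowest. CRYBA1, the beta-crystallin that also encodes the A3 form, had 24206, 29392 and 18683 FPKM. As a result CRYBB2 stood at 1.40 and 1.32 times ASL1 in replicates 1 and 2, and at 0.836 times ASL1 in replicate 3. The order of beta- and delta-crystallin per length therefore differed between libraries of the same treatment.

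The beta-crystallins CRYBB3 and CRYBB1 were lowest in replicate 1, as ASL1 was. CRYBB3 was highest in replicate 3, again like ASL1, and CRYBB1 was highest in replicate 2. CRYBB3 had 4695, 6537 and 6880 FPKM, and CRYBB1, at chromosome 15, 7465177 to 7483070, had 2267, 4175 and 3369 FPKM. CRYBA4, which lies at 7458871 to 7470893 on the opposite strand and overlaps CRYBB1, had 263, 515 and 482 FPKM. Because it is not stated whether counting used the strand, reads of the overlapping stretch cannot be told apart. Among the lower members, named after their values were seen, CRYGS, the gamma-S crystallin, had 126, 269 and 86.1 FPKM, and was the single crystallin with libraries at least 2-fold apart (3.23-fold). CRYM, CRYZ and CRYL1, enzymes or enzyme relatives recruited as crystallins in other animals, lay between 9.19 and 25.3 FPKM in every library.

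Other genes of the fibre cell were detected for 18 of 24 members matched (75%), beside 44.4% of all genes and 61.4% of protein-coding genes. The same 2 shares are the background for the list counts that follow. MIP, the water channel aquaporin 0 of fibre membranes, had 1325, 1349 and 1173 FPKM. The beaded filament proteins, an intermediate filament pair restricted to lens fibres, were close to each other, with BFSP2 at 693, 718 and 878 FPKM and BFSP1 at 604, 629 and 1013 FPKM. Both filament genes were highest in replicate 3, where most crystallins were lowest. GJA3, a gap junction protein of fibre cells, had 792, 739 and 576 FPKM, lowest in replicate 3.

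FABP5, a fatty-acid carrier, had 242, 239 and 394 FPKM. CDH2, the N-cadherin of fibre cell contacts, had 201 ± 7.49 FPKM, and TDRD7, an RNA granule protein whose loss causes cataract in humans, 201 ± 20.2 FPKM. The 6 members not detected were DNASE2B, the nuclease that clears fibre cell nuclei in mice, with a mean of 1.34 FPKM but under the limit in at least 1 library, and SLC7A11, BIRC7, ANK2, UNC45B and LGSN, with means of 0.564 FPKM or less. They are named after their values were seen.

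Of the genes of lens epithelium and lens transcription factors, 15 of 20 matched were detected. PAX6, the paired-box factor at the head of eye development, had 191, 163 and 154 FPKM. SIX3, a homeobox factor of early lens formation, had 195, 164 and 123 FPKM, and both factors were highest in replicate 1 and lowest in replicate 3. GJA1, the epithelial gap junction protein connexin 43, had 301, 378 and 299 FPKM, and SLC2A1, the glucose carrier GLUT1, had 160 ± 11.6 FPKM. The large Maf factors, which drive crystallin genes, were led in this tissue by MAFA (L-Maf) with 106, 105 and 115 FPKM, ahead of MAF with 63.0, 60.0 and 55.0 FPKM. PROX1, a factor of fibre elongation, had 48.0 ± 2.01 FPKM, and TFAP2A, a factor of surface ectoderm and lens epithelium, had 41.7, 33.8 and 23.1 FPKM.

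AQP5, a water channel of mammalian lens epithelium, had no count in any library, which allows up to 0.177, 0.173 and 0.194 CPM, counts scaled to a fixed library size, if 3 counts are taken as the limit for a count of 0. CDH1, the epithelial E-cadherin, averaged 0.589 FPKM. KRT18 and EYA1 averaged 1.5 and 1.31 FPKM without reaching 1 FPKM in every library. These 3 genes are named after their values were seen. The lens epithelium list thus held abundant transcription factors beside an E-cadherin below the detection limit.

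**Figure D2:**
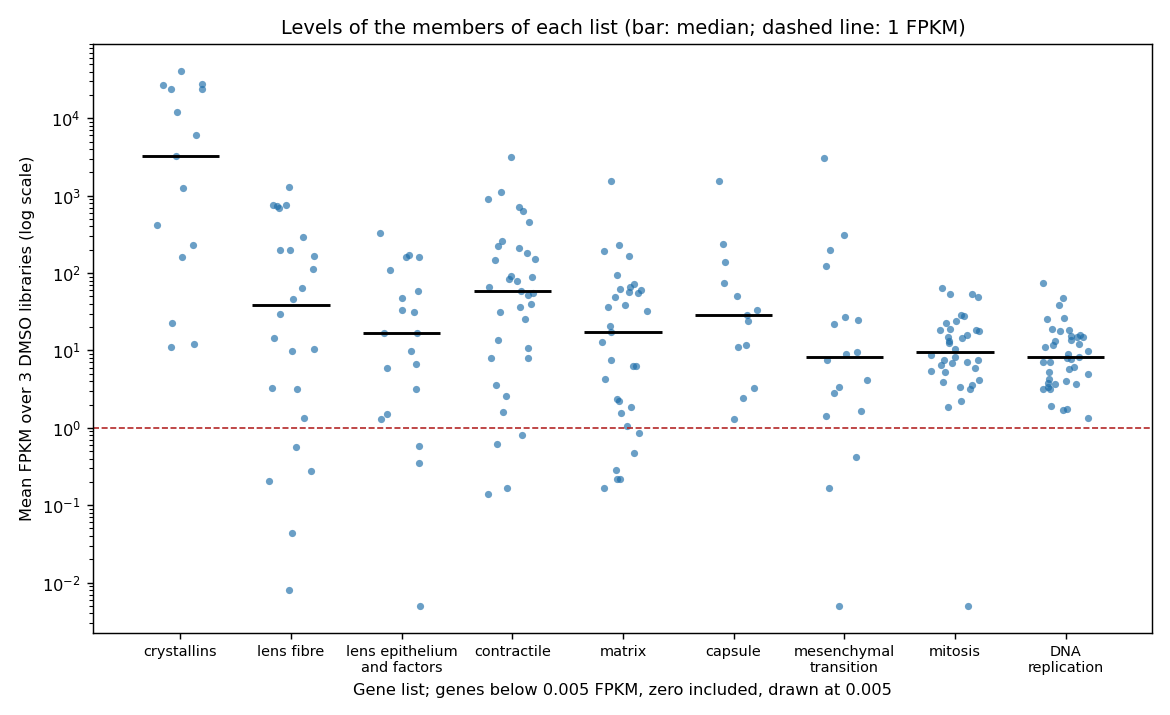
Mean FPKM over the 3 DMSO libraries (vertical axis, log scale) of each member of 9 gene lists (horizontal axis), with a black bar at the median of the list and a dashed line at 1 FPKM. Crystallins have a median of 3270 FPKM, contractile genes 59.1, matrix genes 17.2 and mitosis genes 9.64, and members below the dashed line occur among the lens fibre, lens epithelium, contractile, matrix, mesenchymal and mitosis genes.

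Contractile genes, the parts of stress fibres and smooth muscle filaments, were detected for 30 of 35 matched, with 12 at a mean of at least 100 FPKM. They held 1.87%, 1.53% and 2.16% of the counts in replicates 1, 2 and 3. ACTB, the beta-actin of the cytoskeleton, had 3251, 2625 and 3723 FPKM, and ACTG1, the gamma-actin, had 904, 770 and 1028 FPKM. TAGLN, the actin-bundling transgelin that marks smooth muscle and myofibroblasts, had 1176, 847 and 1332 FPKM. In all 3 genes replicate 2 was lowest and replicate 3 highest.

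MYL6, a myosin light chain, had 715 ± 18.9 FPKM, and CALD1, the actin-binding caldesmon, had 635 ± 24.0 FPKM. TPM1, a tropomyosin that lines actin filaments, had 200, 220 and 350 FPKM, and so set replicate 3 apart from the other libraries. MYH9, the heavy chain of nonmuscle myosin IIA, had 223 ± 23.4 FPKM.

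Among the muscle-type actins, the gut-type smooth muscle actin ACTG2 was ahead of the vascular type, with 128, 120 and 190 FPKM. ACTA2, alpha smooth muscle actin and the usual marker of myofibroblasts, had 40.1, 50.3 and 65.8 FPKM, so ACTG2 stood at 3.19, 2.39 and 2.90 times ACTA2 per length. The sarcomeric actins ACTA1 and ACTC1 had 31.1 ± 4.51 and 7.97 ± 1.39 FPKM. Actin genes share long stretches of near-identical coding sequence, so how the counting divided reads among them was not tested.

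DES, LMOD1 and SMTN, proteins of smooth muscle filaments, were present at 13.5 ± 5.85, 10.7 ± 1.92 and 8.04 ± 2.83 FPKM. CNN1, the smooth muscle calponin, was detected at 2.54, 2.29 and 2.99 FPKM. MYH11, the heavy chain of smooth muscle myosin, reached 1.07 FPKM in replicate 3 alone and averaged 0.811 FPKM. MYOCD, the coactivator that drives the smooth muscle programme, averaged 0.624 FPKM. These contractile genes, from ACTA1 on, are named after their values were seen. The list therefore held actin, transgelin and nonmuscle myosin at high levels, with the heavy chain and the coactivator of differentiated smooth muscle at or below the detection limit.

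Genes of fibrous and provisional matrix were detected for 27 of 33 matched and held 0.899%, 0.795% and 0.958% of the counts. After SPARC, the leading members were CTGF, a secreted target of TGF-beta and YAP signalling, with 207, 185 and 297 FPKM, and TGFBI, a TGF-beta-induced adhesion protein, with 218, 164 and 201 FPKM. THBS1, thrombospondin 1, which can release latent TGF-beta, had 164 ± 15.8 FPKM, and CYR61, a relative of CTGF, 93.7 ± 11.1 FPKM. FN1, the fibronectin of wound matrix, had 60.2, 58.3 and 99 FPKM, with replicate 3 apart from the other libraries. The collagen crosslinking enzymes LOXL1 and LOXL2 had 65.6 ± 7.42 and 62.5 ± 15.5 FPKM.

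Type I collagen, the main fibrillar collagen, had lower means than these. COL1A1 had 56.3, 39.0 and 71.3 FPKM and COL1A2, the second chain of type I collagen, had 30.8, 23.4 and 43.4 FPKM, at a ratio of 1.83, 1.67 and 1.64. Both chains were lowest in replicate 2 and highest in replicate 3. POSTN, the periostin of healing tissue, had 7.28, 12.6 and 19.1 FPKM, and COL3A1, the partner of type I collagen in connective tissue, 1.58 ± 0.325 FPKM. DCN and LUM, small proteoglycans typical of fibroblasts, averaged 0.286 and 0.473 FPKM, and ELN, elastin, averaged 0.220 FPKM. VCAN, versican, averaged 0.166 FPKM, the lowest of the 33. The genes from POSTN on are named after their values were seen.

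Of 20 symbols listed for the lens capsule, 13 matched a gene, and 12 of these were detected. SPARC, whose level is given above, counts in this list as well as in the matrix list. It led the capsule list, with 0.316% of the counts where the whole list held 0.708%. NID1, which links laminin to type IV collagen, had 288, 238 and 184 FPKM, and HSPG2, perlecan, had 153, 144 and 115 FPKM. Both were highest in replicate 1 and lowest in replicate 3. The laminin chains LAMB1 and LAMC1 had 75 ± 7.93 and 50.2 ± 7.82 FPKM. The type IV collagen pair ran the other way across libraries, with COL4A2 at 31.8, 27.0 and 42.4 FPKM and COL4A1 at 25.7, 21.9 and 37.5 FPKM. A gene without a symbol on chromosome 4, ENSGALG00000008141, is assigned to the collagen family and had 945, 784 and 701 FPKM, above every collagen named here. It is in no list and was named after its values were seen, and which collagen it encodes was not checked.

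Matrix receptors were detected for 18 of 19 matched genes. The integrin subunit ITGB1 led with 78.7, 104 and 120 FPKM, followed by ITGAV with 85.2 ± 12.3 FPKM. ITGAV forms receptors that bind fibronectin and activate latent TGF-beta. ITGA6, a laminin receptor subunit of lens cells, had 44.9 ± 4.27 FPKM and ITGA3 51.8 ± 11.2 FPKM. ILK, the kinase scaffold at integrin tails, had 67.4 ± 8.76 FPKM.

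Among proteases and their inhibitors, 16 of 21 matched genes were detected, and inhibitors and collagen handling led. SERPINH1, the collagen chaperone HSP47, had 593, 648 and 422 FPKM. TIMP2 and TIMP3, inhibitors of matrix metalloproteinases, had 473 ± 60.9 and 147 ± 37.1 FPKM. MMP15, a membrane-bound metalloproteinase, had 131, 130 and 132 FPKM, nearly the same in each library. The secreted gelatinases MMP2 and MMP9 had 8.0 ± 3.79 and 8.23 ± 3.84 FPKM, and the collagenase MMP13 had 0.276, 0.720 and 3.65 FPKM. The last 3 genes are named after their values were seen, and in each of them replicate 3 was the highest library.

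Genes linked to mesenchymal transition were detected for 14 of 18 matched. After VIM, the leading members were S100A6, CDH2 and S100A4. The calcium-binding proteins S100A6 and S100A4 had 333, 255 and 355 FPKM and 108, 95.1 and 167 FPKM. CDH2, whose level is given above, also counts among the fibre cell genes. A second gene that carried the symbol S100A4 after matching averaged 1.42 FPKM and was not detected. The receptor PDGFRA had 26.7 ± 4.53 FPKM, the mesenchymal cadherin CDH11 24.9 ± 2.94 FPKM, and the repressors ZEB2 and ZEB1 21.8 ± 1.16 and 9.07 ± 0.849 FPKM. SNAI1, a repressor of E-cadherin named after its values were seen, had 4.12 ± 0.768 FPKM. TWIST2 had no count, and PRRX1 and RUNX2, factors of limb and bone mesenchyme, averaged 0.166 and 0.418 FPKM.

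In the TGF-beta and BMP pathway, 24 of 28 matched genes were detected. The 3 TGF-beta ligands were all present, TGFB1 at 73.7, 60.6 and 106 FPKM, TGFB3 at 65.7 ± 1.92 FPKM and TGFB2 at 55.0 ± 3.27 FPKM. TGFB1 stood at 1.33, 1.05 and 2.06 times TGFB2, so replicate 3 held the most TGFB1 beside it. LTBP1, which stores latent TGF-beta in matrix, had 176 ± 39.0 FPKM, and the signal transducer SMAD3 had 43.7 ± 5.05 FPKM. ID2, ID3 and ID1, helix-loop-helix inhibitors induced by BMP signals, had 110 ± 4.04, 69.9 ± 6.73 and 38.9 ± 1.55 FPKM. The BMP antagonists NOG and GREM1, named after their values were seen, averaged 0.290 and 0.207 FPKM.

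Growth factor genes were detected for 22 of 28 matched (78.6%), beside 61.4% of protein-coding genes. FGF signals drive fibre differentiation, and among their receptors FGFR3 led with 278, 224 and 172 FPKM, ahead of FGFR1 with 65.2 ± 3.30 and FGFR2 with 13.2 ± 1.09 FPKM. FGFR3 stood at 4.06, 3.44 and 2.77 times FGFR1, lowest in replicate 3. HBEGF, a ligand of the EGF receptor, had 33.2 ± 6.10 FPKM, the mesenchymal mitogen PDGFA 19.2, 16.2 and 24.6 FPKM, and FGF19 15.3 ± 4.26 FPKM. HGF, hepatocyte growth factor, had no count in any library. Immediate early and serum response genes were detected for 16 of 19 matched, led by JUND with 208 ± 1.79 FPKM and JUN with 80.7 ± 12.4 FPKM, while EGR1 had 28.0 ± 3.98 FPKM and SRF, the factor that drives actin genes in response to serum, 25.8 ± 3.74 FPKM.

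Proliferation genes were nearly all present at moderate levels. Of the mitosis genes, 35 of 36 matched were detected and none reached a mean of 100 FPKM. CDK1, the kinase that starts mitosis, had 47.9, 59.9 and 85.6 FPKM, and CCNB2, a B-type cyclin that activates it, had 43.9, 46.2 and 58.9 FPKM. UBE2C and CDC20, parts of the machinery that ends mitosis, had 53.2, 42.7 and 64.4 FPKM and 26.2, 20.1 and 38.2 FPKM. In all 4 genes replicate 3 was highest. MKI67, the usual proliferation marker, named after its values were seen, had 2.32, 3.47 and 5.08 FPKM. CCNB3, a cyclin best known from germ cells in mammals, had no count.

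For DNA replication, 39 of 40 matched genes were detected. PCNA, the clamp of the replication fork, had 62.4, 64.8 and 93.5 FPKM, and RRM2, the ribonucleotide reductase subunit made in S phase, had 30.5, 35.3 and 50.5 FPKM. TK1, thymidine kinase, had 26.3 ± 6.0 FPKM. Mitosis and replication genes held 0.136% ± 0.0324 and 0.115% ± 0.0196 of the counts. Among regulators of the G1 phase, 16 of 17 matched were detected, and CDKN1B, the inhibitor p27 that goes with exit from the cycle in fibre cells, led with 150, 146 and 151 FPKM. The D-type cyclins CCND2, CCND3 and CCND1 had 27.2 ± 3.67, 17.3 ± 1.91 and 14.5 ± 0.839 FPKM. CDKN2B, the inhibitor p15, had 2.42, 1.01 and 8.5 FPKM, a spread of 8.11-fold on the TMM scale described below, and was named after its values were seen.

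Of the 18 lists, glycolysis and hypoxia genes held the most counts after the crystallins, 5.11%, 4.98% and 4.14%, and all 25 matched were detected. Replicate 3 was the lowest library for 11 of these 25 genes (44%) and the highest for 8 (32%), on the TMM scale described below. Over all genes with a mean of at least 1 FPKM the shares were 34.3% and 29.2%. Besides LDHA and ENO1, GAPDH had 5458, 5423 and 4994 FPKM, the aldolase ALDOC 1149 ± 21.4 FPKM, and the pyruvate kinase PKM 890 ± 85.8 FPKM. LDHA stood at 63.2, 73.8 and 40.6 times LDHB, the subunit of oxidative tissues, per length. CA9, a carbonic anhydrase induced by low oxygen and named after its values were seen, had 131, 108 and 79.8 FPKM.

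Cytosolic ribosomal protein genes were detected for 51 of 52 matched and held 3.67%, 3.42% and 3.27% of the counts. Within the list RPS2, RPS19 and RPS6 led with 2324 ± 175, 1720 ± 45.4 and 1541 ± 323 FPKM, and RPS26 had no count. The list left out some genes of this kind, among them FAU with 2229 ± 45.2 FPKM and RPL23A, so its share of the counts is partial. Among the 13 protein-coding genes of the mitochondrial genome, the cytochrome oxidase subunit COX1 led with 4033, 3168 and 3846 FPKM, and ND6 was lowest with 333, 232 and 238 FPKM. All 29 stress and chaperone genes matched were detected, led by the iron store FTH1 with 1368 ± 194 FPKM, the peroxidase PRDX1 with 568 ± 104 FPKM and the chaperone HSPA8 with 552 ± 14.7 FPKM.

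**Figure D3:**
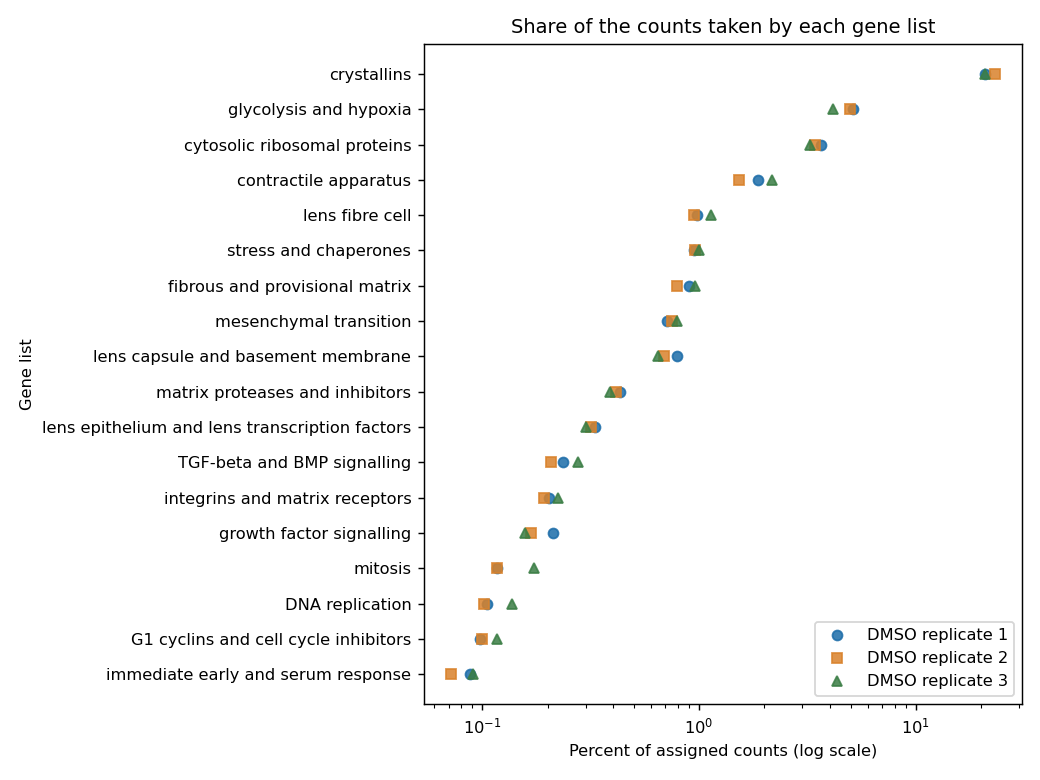
Percent of assigned counts (horizontal axis, log scale) taken by each of 18 gene lists (down the page), with 1 symbol per DMSO replicate. Crystallins lie above 20% in each library, glycolysis and hypoxia genes between 4.14% and 5.11%, and mitosis and replication genes between 0.102% and 0.173%.

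Noncoding genes among the 30 highest were few. The highest lncRNA gene, ENSGALG00000048488 on chromosome 6 at 3358158 to 3361503, ranked 28 with 1740, 1898 and 1416 FPKM and overlapped no other gene of the table. The next lncRNA, ENSGALG00000053676 on chromosome 25, had 172, 166 and 147 FPKM, so the leading gene stood far above the rest of its biotype. A gene of the miRNA biotype, ENSGALG00000028375, ranked 25 with 1792, 1827 and 1996 FPKM. It is 81 bases long and lies within UBL7 on the same strand of chromosome 10, so its reads cannot be told apart from those of the host gene, and its FPKM rests on 2403, 2385 and 2445 counts.

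Marker genes were set beside the label of the tissue. They were chosen with earlier results of these data known, so they are not an independent check of it. Lens fibre markers were detected for 10 of 11 matched, lens epithelium markers for 5 of 6, with CDH1 the exception, and myofibroblast markers for 7 of 8, with MYH11 the exception. FOXE3 and PITX3, factors of the lens epithelium, had no gene under these symbols and were not analysed by name. Genes without a symbol led the forkhead and homeobox families described below, and whether they are these factors was not checked. Of markers of fibroblasts and mesenchyme, 6 of 10 were detected (60%), near the 61.4% of protein-coding genes, with DCN, LUM, PRRX1 and TWIST2 not.

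Markers of blood, muscle, nerve and pigment cells were low. For comparison, 44.4% of all genes and 61.4% of protein-coding genes were detected. Erythrocyte markers were detected for 1 of 8 matched genes, ALAS2, the enzyme that starts haem synthesis in red cells, with 7.14 ± 1.27 FPKM, and the embryonic and adult globin genes matched had 0 counts apart from HBA1 at a mean of 0.202 FPKM. Muscle markers were detected for 2 of 12, TNNI2 with 14.5 ± 5.96 and TNNT2 with 5.63 ± 0.765 FPKM, both troponin subunits, while MYOG, MYF5, MYF6, PAX7, MB and MYL1 had no count. Endothelial markers were detected for 2 of 10 (PECAM1 and KDR at means of 3.05 and 2.68 FPKM), neuronal markers for 2 of 12 (NEFL and ELAVL4 at 9.34 and 1.17 FPKM), and pigment cell markers for 2 of 10 (SLC45A2 and RLBP1 at 3.94 and 1.86 FPKM), with TYR, the enzyme of melanin synthesis, at 0 counts. Markers of cornea and surface epithelium were detected for 3 of 11, led by KRT19 with 30.6 ± 5.20 FPKM, and markers of glia for 2 of 8, led by FABP7, a fatty-acid carrier, with 6.51, 5.21 and 17.9 FPKM. FABP7 also counts among the 18 fibre cell genes detected.

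None of the 15 leukocyte and macrophage genes matched was detected, but their level differed between libraries. They summed to 406, 276 and 84 counts in replicates 1, 2 and 3, or 24.0, 15.9 and 5.43 CPM of the unscaled library totals, with 95% Wilson intervals of 21.7 to 26.4, 14.2 to 17.9 and 4.39 to 6.73 CPM. MARCO, a scavenger receptor of macrophages, had 2.51, 1.42 and 0.151 FPKM, LCP1, an actin bundler of white cells, 1.5, 1.27 and 0.414 FPKM, and CSF1R, the receptor that macrophages need, 1.32, 0.924 and 0.277 FPKM. All 3 were lowest in replicate 3, the library with the highest mitosis and contractile levels. Markers of T cells, CD4 and CD8A, had no count. The part of these cells in other differences between libraries was not tested.

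To compare libraries, counts were scaled by TMM factors (a trimmed mean that equalises most genes) and given as CPM. Over 11428 genes with a mean of at least 1 FPKM, the coefficient of variation between the 3 libraries had a median of 14.5%, where counting alone would give 5.02%. Fitted over 12680 genes with edgeR, the common biological coefficient of variation was 19.3%. Log2 CPM of 2 libraries correlated across these 11428 genes with Pearson's r of 0.977 to 0.981 and Spearman's rho of 0.978 to 0.982, which describes the libraries, since genes are not independent replicates. In each pair, 85.8% to 88.1% of the genes lay within 1.5-fold. The chi-square statistic per degree of freedom was taken on unscaled library totals, over all genes with a count in either library of a pair. It was 19.5 to 27.2, so no library repeated another within sampling noise, which does not show whether they came from separate birds or cultures.

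The highest library was at least 2-fold above the lowest for 1033 of 11428 genes, or 9.04%. The share depended on level, with 22.3% of genes between 1 and 5 FPKM, 5.06% between 5 and 20, 1.81% between 20 and 100, 0.903% between 100 and 1000, and 0 of 56 genes at 1000 FPKM or more. With 1 replicate left out the count was 533 to 584. Replicate 3 was the highest library in 391 of the 1033 genes, replicate 2 in 357 and replicate 1 in 285.

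**Figure D4:**
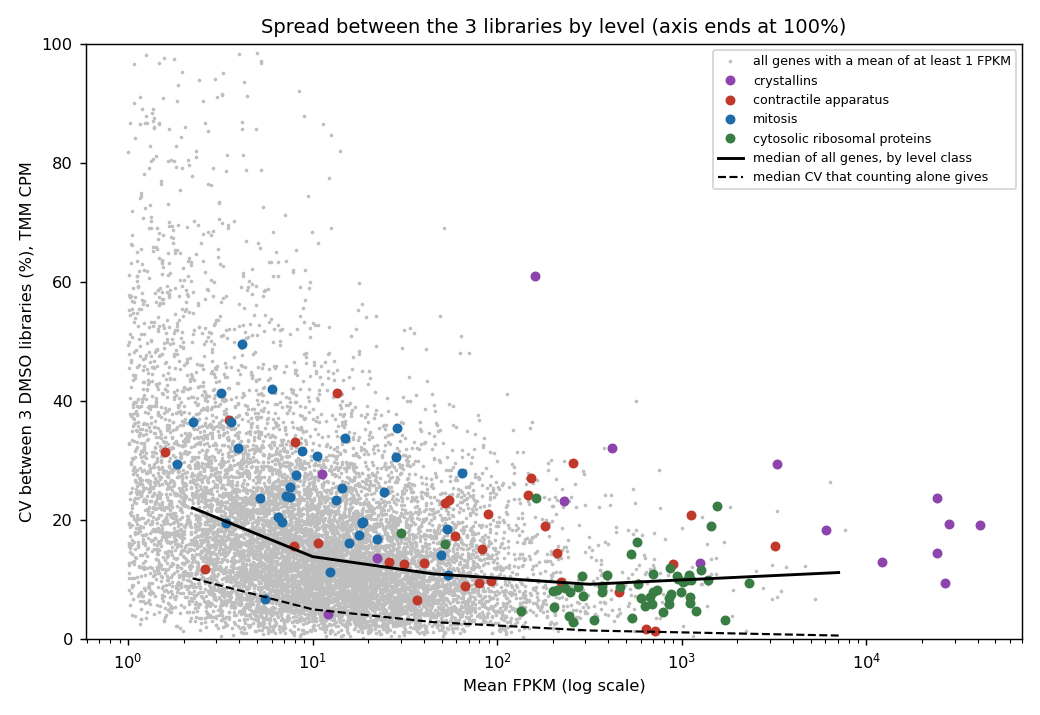
Coefficient of variation between the 3 DMSO libraries in percent (vertical axis, TMM-scaled CPM) against mean FPKM (horizontal axis, log scale), with grey points for all genes at a mean of at least 1 FPKM and coloured points for 4 lists. The solid line, the median of all genes by level class, stays above the dashed line that counting alone gives, at every level, and 65 genes with a coefficient over 100% lie beyond the axis.

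Lists differed in their spread. The median coefficient of variation was 8.23% for ribosomal protein genes, 12.4% for glycolysis and hypoxia genes and 15.6% for contractile genes. It was 19.2% for crystallin, 22.9% for matrix and 24.0% for mitosis genes, beside 14.5% for all genes. Members at least 2-fold apart numbered 1 of 15 crystallins, 2 of 31 contractile genes, 2 of 27 matrix genes and 6 of 35 mitosis genes with a mean of at least 1 FPKM, beside 9.04% of all genes. Single libraries set part of this: without replicate 2 the median of the contractile genes was 9.02%, and without replicate 3 those of the matrix, mitosis and ribosomal protein genes were 10.1%, 15.6% and 3.82%. With all 3 libraries, crystallin, matrix and mitosis genes spread more than the median gene, although counting alone gives crystallins a median of only 0.372%.

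Within several lists the same library was highest for most members. Replicate 3 was the highest library for 32 of 35 mitosis genes, 32 of 40 replication genes, 25 of 31 contractile genes and 17 of 27 matrix genes, beside 3333 of 11428 genes in all (29.2%). It was the lowest library for 48 of 51 ribosomal protein genes and 10 of 15 crystallins, beside 3922 genes in all (34.3%). Replicate 2 was the highest for 11 of 15 crystallins, beside 35.1% of all genes. It was the lowest for 24 of 31 contractile and 17 of 27 matrix genes, beside 30.1% of all genes. Summed over a list on the TMM scale, mitosis genes came to 1166, 1226 and 1666 CPM in replicates 1, 2 and 3. Contractile genes summed to 18657, 16016 and 20768 CPM, and crystallins to 208743, 242956 and 199578 CPM. Genes of a list are not independent, so these counts describe 3 libraries and carry no test.

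**Figure D5:**
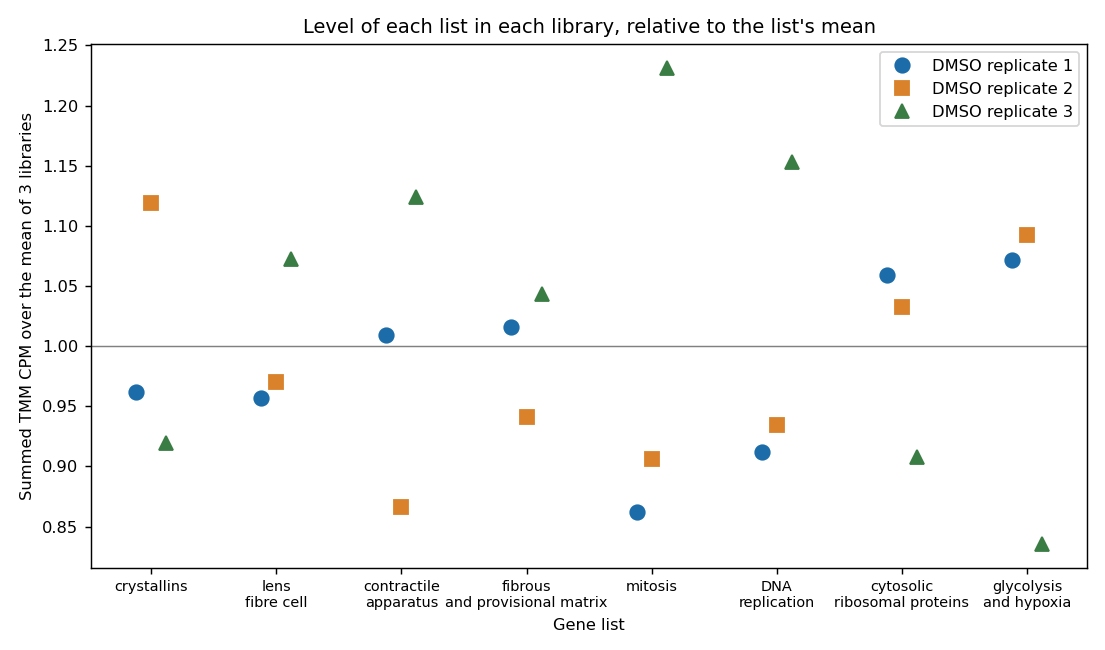
Summed TMM-scaled CPM of 8 gene lists in each DMSO library, divided by the mean of the 3 libraries for that list (vertical axis; grey line at 1), with 1 symbol per replicate. Replicate 3 is highest for lens fibre, contractile, matrix, mitosis and replication genes. It is lowest for crystallin genes, ribosomal protein genes, and glycolysis and hypoxia genes.

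Genes on chromosome W, which is carried by female birds alone, also set libraries apart. Of 124 such genes, 64 had a count, and they summed to 403, 969 and 939 CPM in replicates 1, 2 and 3. Replicate 1 held less than the other libraries. HNRNPKL, an RNA-binding protein gene on W named after its values were seen, had 6.61, 25.1 and 21.2 FPKM. The part of sex in other differences between libraries was not tested.

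Among genes that have a symbol and average 5 FPKM or more, the 15 with the largest fold between highest and lowest library were mostly small RNAs. Of these, 10 were not protein coding, with lengths of 71 to 287 bases and no more than 129 counts in a library. USH1C, the scaffold protein harmonin, was the widest protein-coding gene, with 1.01, 16.4 and 7.97 FPKM, a 16.2-fold spread on 51, 805 and 367 counts. AVD, the biotin-binding egg protein avidin, which chicken cells also make in inflammation, had 17.1, 8.62 and 1.33 FPKM, and CSTA, a cystatin that inhibits cathepsins, had 12, 7.06 and 2.07 FPKM. Both were highest in replicate 1 and lowest in replicate 3, as the summed leukocyte markers were, and whether they belong together was not tested. DKK1, a secreted inhibitor of Wnt signalling, had 7.18, 9.10 and 2.01 FPKM, and the histone gene HIST1H2B7 11.1, 2.61 and 2.08 FPKM.

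Among protein-coding genes alone, in a ranking added after the data were seen, the next widest included ASPH, an aspartate hydroxylase, with 8.02, 23.1 and 5.81 FPKM. KCNK1, a potassium channel, had 8.40, 17.3 and 29.8 FPKM. CER1, a secreted antagonist of BMP and Nodal, had 27.2, 33.9 and 94.2 FPKM, so that replicate 3 stood 3.35-fold above replicate 1 on the TMM scale. Its mean of 51.8 FPKM lies in the class from 20 to 100 FPKM, where 1.81% of genes were at least 2-fold apart.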

How the data were processed

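RNA was sequenced as 150 bp paired-end reads, per the labels' protocols. The authors deposited raw counts of reads per gene for 24356 genes, as whole numbers without normalisation. FPKM were deposited beside them. The library divisor that counts, deposited gene lengths and FPKM imply was taken as a median over the better-covered genes. It equalled 0.931 to 0.979 of that library's total. Per the submitters' processing notes the tools included StringTie 1.3.3b, HISAT2 2.0.5, DESeq2 1.20.0 and featureCounts 1.5.0-p3, without their roles. The sources used here give no genome build, annotation release or strand setting. Coordinates are those of the deposited tables. Symbols came from the tables for 13688 genes and from a RefSeq gene table (assembly GRCg7b, names only) for 725. The other 9943 genes kept their identifiers.

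Only the 3 DMSO libraries were used, with replicate numbers from the sample titles. With 1 group there was no test, and values are given per library or as mean ± SD. Levels between genes were compared in FPKM. Spread was computed on counts scaled by TMM factors (1.00, 0.958 and 1.04) in edgeR 4.0.16 under R 4.3.3. The dispersion came from an intercept-only model over genes with a mean of at least 10 counts. This step was tested on simulated data with the same dispersion for every gene. Spread in these libraries depended on level, which that simulation does not cover. Counting error of the list shares was at most 0.0202 percentage points to either side (95% Wilson interval). Such intervals, and the limit of 3 counts for a count of 0, cover counting error only. Size factors of DESeq2 1.42.0 were an alternative.

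The members and the 18 gene lists and marker lists were chosen with earlier results of these data known. Named genes were the 30 highest by mean FPKM, up to 8 detected members per list with the highest mean and those at 0 counts, the 15 widest genes with a symbol and at least 5 FPKM, the 8 highest lncRNA genes, the mitochondrial genes and the 3 highest of each marker list, of which not all are described and some are not reported here, while list counts include them. Others are marked. Sequences are not printed.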

Additional observations from a re-analysis of the deposited data

How the results depend on the processing

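Of 72 results recomputed under alternatives, 335 of 389 alternative values moved by less than the spread between libraries or within 1.5 times a count. The other 54 moved further, and a reversal of direction was not scored. Where the spread between libraries was the limit, leaving out 1 replicate cannot exceed it, so those values say nothing about stability. Of the 30 highest genes by mean FPKM, 22 stayed among the 30 highest by CPM, which is not per length. Under the other alternatives 29 or 30 stayed. With crystallins left out of the total, the top 100 genes held 25.9% of the counts in place of 41.1%, contractile genes 2.36% in place of 1.86%, matrix genes 1.13% in place of 0.884% and mitosis genes 0.173% in place of 0.136%. As shares of summed FPKM, which discount long genes, the top 100 held 51.2%, protein-coding genes 97.8%, crystallins 28.6%, contractile genes 1.54%, matrix genes 0.486% and mitosis genes 0.0983%. The count of genes at least 2-fold apart was 2814 with no filter on level, 294 at a mean of 5 FPKM, 3405 at 1.5-fold, and 533 to 584 when 1 replicate was left out, since 2 libraries span less than 3. With 1 replicate left out in turn, the median coefficient of variation ranged from 9.02% (without replicate 2) to 17.9% for contractile genes, from 10.1% (without replicate 3) to 23.4% for matrix genes and from 15.6% (without replicate 3) to 29.0% for mitosis genes. Between 1 and 5 FPKM, counting alone gives a median coefficient of variation of 10.2%, beside 22.1% between the libraries. No paired analysis was possible because only 1 group was used and no result comes from a test.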

Other observations

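Genes grouped by the DNA-binding domain that the deposited table assigns were looked at after the values were seen. Of 142 homeobox genes, 17 were detected, beside 44.4% of all genes and 61.4% of protein-coding genes. Of the homeobox genes, 77 had no count in any library, beside 29.3% of all genes. The highest was ENSGALG00000005613, a gene without a symbol on chromosome 6 at 17640007 to 17642288, with 592, 513 and 422 FPKM in replicates 1, 2 and 3, ahead of SIX3. A homeobox gene with a symbol, SOHO-1, a factor of sensory organs in the chicken, had 100, 85.3 and 78.4 FPKM. All 3 homeobox genes were highest in replicate 1 and lowest in replicate 3.

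Of 37 forkhead genes, 16 were detected, a share of 43.2%, beside 44.4% of all genes and 61.4% of protein-coding genes. The forkhead genes were led by ENSGALG00000028153, also without a symbol, on chromosome 8 at 22326174 to 22327334, with 354, 313 and 231 FPKM. ATF4, the leucine-zipper factor of the integrated stress response, had 308, 315 and 299 FPKM. Of the PAX genes 1 of 7 was detected, PAX6, and of the T-box genes 2 of 17. All 10 genes of the E2F and DP family were detected.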
